A study of Mus musculus with 7 samples.

Results

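Colon epithelium of mice given PhIP and then DSS was compared with that of mice given DSS alone, 3 days after the DSS had ended. The comparison rests on 2 of the study's 7 RNA-seq libraries, 1 for each treatment, which were chosen by their labels. Genes were joined between the libraries, a gene listed in only 1 of them was given 0 reads in the other, and 13465 of the 16700 genes with a read in the pair had at least 10 uniquely mapped reads summed over both. Near that minimum, the tuft cell regulator Pou2f3 was just inside it with 5 against 5 reads, and the Wnt pathway inhibitor Nkd1 was just outside it with 1 against 8 reads.

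All mice were females of the hCYP1A line on C57BL/6, in which human CYP1A genes replace the mouse ones, and they were 6 weeks old at the start. Both treated arms drank water with 1.5% DSS over 5 days, and the PhIP/DSS arm had first received 2 doses of PhIP, 100 mg/kg each and 4 days apart, a week ahead of it. Colons were taken 1, 3 and 7 days after the DSS, and 3 untreated mice gave the control library. The epithelium was scraped off the muscle layer, equal amounts of RNA of 3 mice were pooled into each library, and poly-A RNA was sequenced. A pool counts as 1 sample. The labels record colitis for both day 3 pools, partial colitis for both day 7 pools and a normal control. No PhIP arm without DSS was analysed here.

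DSS is a sulfated polysaccharide that damages the colonic lining and lets gut bacteria reach the tissue beneath. PhIP is a heterocyclic amine of cooked meat which CYP1A2 converts to a DNA-reactive form. After such damage the colon fills with neutrophils and monocytes, the surviving epithelium makes antimicrobial proteins, and the mature absorptive programme is then rebuilt.

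In units of 1000000 uniquely mapped reads, the day 3 libraries had 8.78 with DSS alone and 8.42 with PhIP/DSS, within a range of 7.66 to 8.78 over all 7, and 15849 to 16134 genes had a read in each. With 1 library per treatment and day there was no replicate spread and no test was possible, so every ratio describes these pools. A ratio is PhIP/DSS over DSS alone in reads scaled by library total, the range in parentheses after a fold is its exact 95% interval, and such intervals cover counting error only, not differences between mice. Levels are in RPKM, reads per kilobase of gene and per 1000000 reads, and in each pair of values, joined by "and" or "against", DSS alone stands first. Cyp1a1 and Cyp1a2, the mouse genes the line lacks, had 0 reads in all 7 libraries.

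The pair differed most in genes of inflammation, which were lower in the PhIP/DSS pool. In all, 811 of 13465 genes (6.02%) were at least 2-fold lower in it and 372 (2.76%) at least 2-fold higher, while 47.7% were lower and 52.3% higher by any amount, and the median log2 ratio was 0.01. Genes at low levels made up most of both sets: of 764 genes at 100 RPKM or more, 8 were at least 2-fold lower and 7 higher, against 423 and 209 of 2040 genes under 1 RPKM. Genes that mark the colonic epithelium itself were close between the pools: all 10 of the list were counted, 0 of them at least 2-fold higher and 0 at least 2-fold lower, with a median log2 ratio of 0.10. Cdh1, the adhesion protein of epithelial junctions, had a log2 ratio of -0.11.

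**Figure D1:**
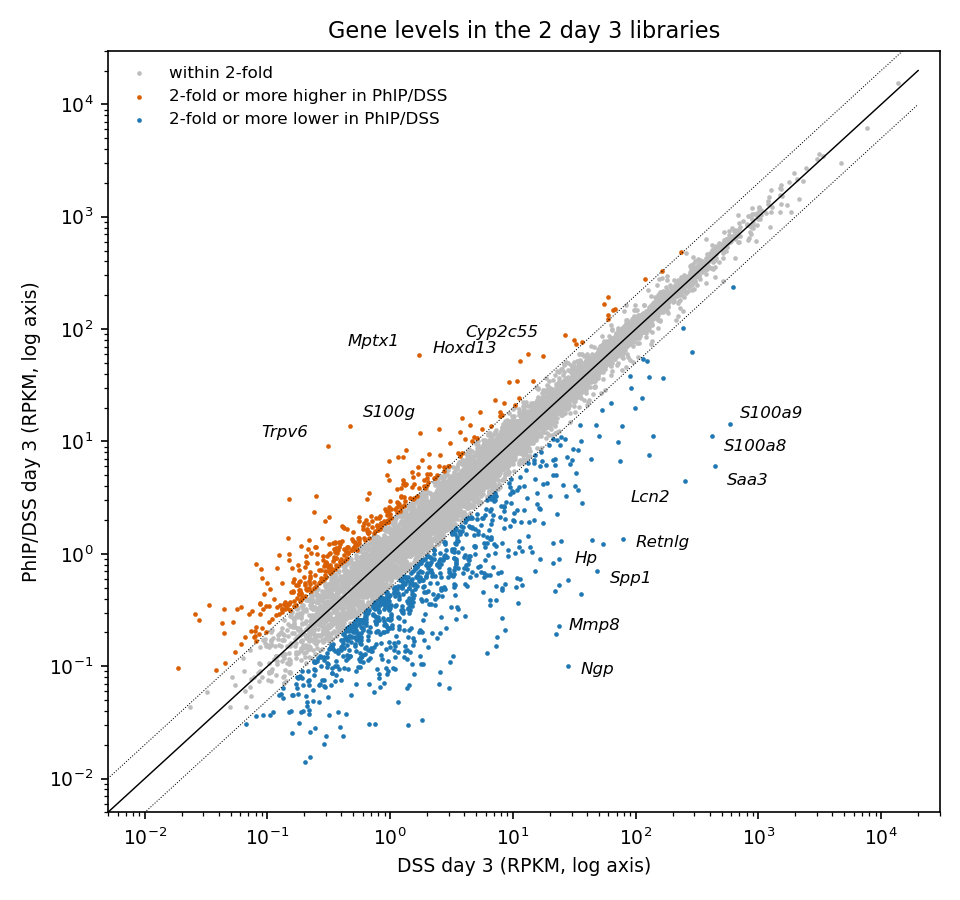
Level of each counted gene with a read in both day 3 libraries, DSS alone on the x axis and PhIP/DSS on the y axis, both in RPKM on log axes. The solid line marks equal levels and the dotted lines 2-fold, blue points are at least 2-fold lower and orange points at least 2-fold higher in PhIP/DSS, and the 18 counted genes with 0 reads in 1 library are not drawn. Most points lie between the dotted lines, while Saa3, Lcn2, S100a8 and S100a9 lie far below them and Mptx1 and Trpv6 far above.

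The start regions of 4 genes at the ends of this range are shown because the text returns to them: Saa3 and Ngp were among the lowest ratios, and Trpv6 and S100g, a pair of genes of 1 calcium route, among the highest. Each is the 250 bases before an annotated RefSeq start in GRCm38.p6, written in the direction of the gene, with motif matches in capitals. For Saa3 the window lies inside the gene span given below, so the start used is not the outer end of that span. Saa3 is chr7:46715677-46715926 on the minus strand, Ngp is chr9:110419558-110419807 on the plus strand, Trpv6 is chr6:41636406-41636655 on the minus strand and S100g is chrX:162964600-162964849 on the minus strand.
Saa3: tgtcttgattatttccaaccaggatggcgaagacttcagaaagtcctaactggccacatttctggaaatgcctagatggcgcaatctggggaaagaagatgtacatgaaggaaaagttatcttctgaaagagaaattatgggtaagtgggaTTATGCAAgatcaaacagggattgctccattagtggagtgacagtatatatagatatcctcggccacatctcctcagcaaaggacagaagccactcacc
Ngp: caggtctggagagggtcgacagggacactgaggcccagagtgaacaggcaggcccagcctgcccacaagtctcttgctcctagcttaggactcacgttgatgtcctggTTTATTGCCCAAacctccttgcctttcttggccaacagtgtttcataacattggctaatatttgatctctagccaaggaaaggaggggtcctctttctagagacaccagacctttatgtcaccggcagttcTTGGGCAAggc
Trpv6: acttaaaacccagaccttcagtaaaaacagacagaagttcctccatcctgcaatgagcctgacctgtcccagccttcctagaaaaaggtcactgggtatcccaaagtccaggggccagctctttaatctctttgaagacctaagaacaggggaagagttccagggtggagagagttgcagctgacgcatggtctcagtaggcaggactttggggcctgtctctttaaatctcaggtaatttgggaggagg
S100g: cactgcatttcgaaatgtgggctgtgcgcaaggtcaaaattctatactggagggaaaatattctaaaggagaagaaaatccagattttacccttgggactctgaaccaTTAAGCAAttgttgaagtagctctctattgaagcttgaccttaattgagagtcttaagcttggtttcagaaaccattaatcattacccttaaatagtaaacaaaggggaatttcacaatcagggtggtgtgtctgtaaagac

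These windows were searched on both strands for GGGANNNNCC (NF-kB, the main factor of inflammatory signalling), TTGCNNAA (C/EBP, factors of myeloid and acute phase genes), TTTATNG (CDX, factors of intestinal identity) and the vitamin D receptor element GGTNCANNNGGTNCA, where N is any base. Saa3 held 1 C/EBP match, 99 to 92 bases before the start. Ngp held 2, at 138 to 131 and at 11 to 4, and the first of them overlapped a CDX match at 142 to 136. S100g held 1 C/EBP match at 142 to 135, and Trpv6 held none of the 4 motifs. Among 10720 counted genes with such a window, 9.33% held the C/EBP letters, as did 13.1% of the 602 that were at least 2-fold lower and 9.03% of the 288 that were at least 2-fold higher. The NF-kB letters were in 26.5% of counted genes, 28.2% of the lower and 23.6% of the higher ones. The CDX letters were in 7.94%, 10.5% and 12.2%, and those of the vitamin D receptor in 0.0746%, 0.00% and 0.00%. A match is a description of letters and not a bound site.

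Several secreted proteins that bind iron, zinc or lipids were far lower. Saa3, an acute phase apolipoprotein on chromosome 7 (chr7:46711998-46719615), stood at 1.72 RPKM in the control, 55.2 and 965 in the day 1 pair, 442 and 6.04 in the day 3 pair and 122 and 27.1 in the day 7 pair. It was 73.2-fold (50.1 to 111) lower in the day 3 PhIP/DSS pool. Only the untreated control was lower still among the 7 libraries, and the highest was the PhIP/DSS pool of day 1.

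Lcn2, which withholds iron from bacteria, was 0.765 RPKM in the control, 11.3 and 249.5 in the day 1 pair, 253 and 4.45 in the day 3 pair and 46.9 and 16.7 in the day 7 pair, and the day 3 difference was 56.8-fold (40.1 to 83.3). S100a9 and S100a8 form calprotectin, which binds zinc and calcium, and lie close together on chromosome 3. S100a9 was 0.802 RPKM in the control, 16.4 and 426 in the day 1 pair, 583 and 14.4 in the day 3 pair and 236 and 31.7 in the day 7 pair, 40.6-fold (31.4 to 53.5) lower with PhIP on day 3. S100a8 was 0.333 RPKM in the control, 11.7 and 250.1 in the day 1 pair, 416 and 11.2 in the day 3 pair and 154 and 22.5 in the day 7 pair, 37.2-fold (26.8 to 53) lower. For both subunits the day 3 pool of DSS alone was the highest of the 7 libraries, and the day 3 PhIP/DSS pool was at or below the day 1 DSS pool.

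Hp, the haemoglobin scavenger haptoglobin, was 54.4 against 1.22 RPKM in the day 3 pair, 44.7-fold (26.4 to 82.2) lower. Spp1, a matrix and cytokine protein also called osteopontin, was 48.6 against 0.704, with 648 against 9 reads. Acod1, the itaconate-making enzyme of activated macrophages, was 43.7 against 1.33, 32.8-fold (22.7 to 49.3) lower. These genes were high with DSS alone and low with PhIP/DSS, and the control had 0.287, 0.258 and 0.403 RPKM.

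**Figure D2:**
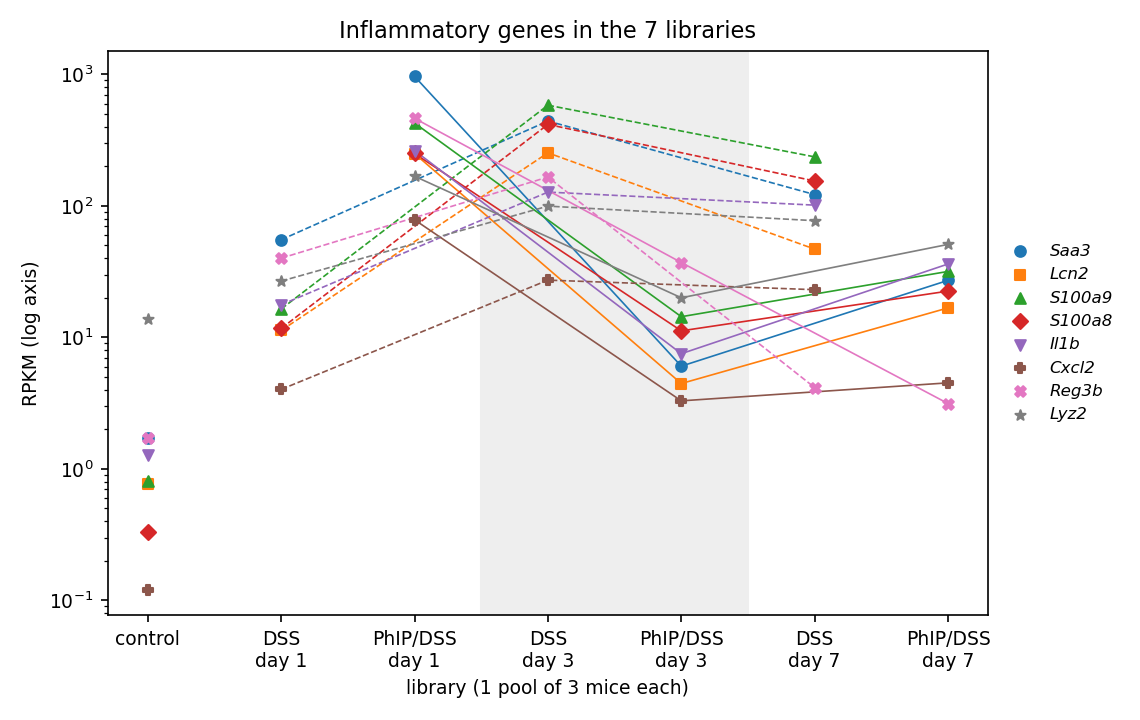
Levels of Saa3, Lcn2, S100a9, S100a8, Il1b, Cxcl2, Reg3b and Lyz2 in all 7 libraries, in RPKM on log axes, against day after DSS, with the control at the left. Dashed lines join the DSS pools, solid lines the PhIP/DSS pools, each point is 1 pool of 3 mice, and the grey band marks day 3. On day 1 the PhIP/DSS pool is the higher of the pair for each gene, and on day 3 the lower.

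Neutrophil markers, a list that includes S100a8 and S100a9, showed the same order. Of 32 listed genes, 25 had at least 10 reads in the pair, and all 25 were at least 2-fold lower in the PhIP/DSS pool, against 6.02% of all genes, with a median log2 ratio of -4.14. Some of them reached that read minimum only through the DSS pool, where they were high, so the minimum itself partly set this count. The summed level of the list was 1353 and 39 RPKM, against 5.47 in the control, 49.1 and 989 on day 1, and 563 and 95.9 on day 7. In both day 3 pools most of this sum came from S100a9 and S100a8, whose levels are given above. In bulk RNA, fewer cells of a type and less RNA per cell cannot be told apart.

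The granule genes were almost at 0. Ngp, a granule protein whose start region is printed above, had 292 against 1 reads in the day 3 pair, a ratio of 280.1-fold (49.9 to 11101) in favour of DSS alone. Mmp8, the neutrophil collagenase, had 485 against 4 reads, 116-fold (45.1 to 429) lower. Chil3, a chitinase-like protein of neutrophils and activated macrophages, had 328 against 3 reads and a ratio of 105-fold (35.6 to 511). In these 3 genes nearly all reads of the pair came from the DSS pool.

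With 0 reads set to 3, the PhIP/DSS pool was at least 9.91-fold lower for Stfa2l1, a cystatin, and for Wfdc21, and at least 7.03-fold lower for Trem3, a myeloid receptor. Camp, Prtn3, Stfa2, Mrgpra2a and Mpo were also at 0 reads there, while Mpo was the only one of the 29 markers with a read in any library that was at 0 in the DSS pool. Csf3r and Cxcr2 were less far apart. Csf3r, the receptor for granulocyte colony-stimulating factor, was 13.2 against 1.44 RPKM, and Cxcr2, the receptor that draws neutrophils to CXC ligands, was 9.95 against 1.99. Mmp9, a gelatinase of neutrophil granules, was 16.7 against 0.894, 18.7-fold lower, and Retnlg was 79.3 against 1.36. Clec4e, a pattern receptor, was 21.9 against 0.471.

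Cytokine genes differed widely in how far apart the pools stood. Of the 19 counted mediators of acute inflammation 13 were at least 2-fold lower, against 6.02% of all genes, and none at least 2-fold higher (median -1.52). Of the 13 counted interleukin 1 family genes 7 were at least 2-fold lower, against the same 6.02%, and none higher (median -1.23). Il1b, the secreted interleukin of inflammasome activation, was 1.28 RPKM in the control, 17.7 and 263 in the day 1 pair, 127 and 7.51 in the day 3 pair and 101 and 36.1 in the day 7 pair, 16.9-fold (13.6 to 21.4) lower on day 3. Il1a was 11.4 against 0.601 in the day 3 pair, and Il1r2, the decoy receptor, was 15.2 against 0.698. Il1rn, the receptor antagonist, was closer at 134 against 73.4 RPKM, and Il18 was 111 against 125, a log2 ratio of 0.17. Il33 was 7.09 against 3.02, and its log2 ratio of -1.23 equalled the family median. Il1f9 had a log2 ratio of -1.59.

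Tnf was 9.5 against 6.67 RPKM, a log2 ratio of -0.51. Nos2, the inducible nitric oxide synthase, was 1.41 RPKM in the control, 21.4 and 65.7 in the day 1 pair, 84.8 and 60.4 in the day 3 pair and 65.5 and 56.4 in the day 7 pair, 1.4-fold lower with PhIP on day 3. Ptgs2, the inducible prostaglandin synthase, was 13.9 against 1.14, 12.1-fold (8.79 to 17.2) lower, and Ptges, which follows it in the pathway, was 4.81 against 1.17. Thus Tnf and Nos2 lay within 2-fold in the same pair in which Il1b and Ptgs2 did not. Of the 13 counted prostaglandin genes 4 were lower by at least 2-fold and 1 higher, against 6.02% and 2.76% of all genes. Hpgd, which inactivates prostaglandin E2, was 121 against 85.1. The single higher one was Ptger3, a prostaglandin E2 receptor, with 12 against 27 reads. Oncostatin M, a cytokine of myeloid cells, had 54 against 2 reads, a ratio of 25.9-fold (6.83 to 219) for Osm, while Socs3, a feedback target of this cytokine family, was 36.3 against 27.4 RPKM and Stat3 was 57.2 against 53.5.

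Chemokine genes ranged from far lower to higher. Of the 6 counted neutrophil-attracting CXC ligands and their receptors 4 were at least 2-fold lower, against 6.02% of all genes. The median of the list was -1.71, or -1.10 over genes with at least 1 read and -2.32 over those with at least 50. That last value is the ratio of the receptor Cxcr2, a neutrophil marker given above. Cxcl2 was 0.12 RPKM in the control, 4.02 and 78.3 in the day 1 pair, 27.2 and 3.29 in the day 3 pair and 23 and 4.51 in the day 7 pair, 8.28-fold (5.66 to 12.5) lower on day 3, and Cxcl3 was 13.9-fold lower. Cxcl1 was 2.15-fold lower, and Cxcl5 was level at 10.9 against 11.9 RPKM. So the ligands of Cxcr2 ranged from equal levels to differences above 10-fold. Cxcl10, an interferon-induced ligand that attracts T cells, was 22.1 against 7.0 RPKM and 3.15-fold lower, and Cxcl9 was 7.49 against 3.76.

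Among CC chemokines, Ccl3 and Ccl4, products of activated myeloid cells, had 200 against 4 and 140 against 3 reads in DSS alone and PhIP/DSS. Ccl20, the epithelial attractant of Ccr6-bearing cells, went the other way with 10 against 30 reads, 3.13-fold (1.49 to 7.17) higher. Ccl28, which attracts IgA plasma cells, was 57.9 against 66.6 RPKM and Ccl6 was 149 against 248. Over the 10 counted CC genes the median was -0.28, with 4 at least 2-fold lower and 2 higher, against 6.02% and 2.76% of all genes.

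Macrophage and monocyte markers divided. Of 21 counted, 14 were at least 2-fold lower, against 6.02% of all genes, and none at least 2-fold higher (median -1.90). None of the 22 was at 0 in either pool. Lyz2, lysozyme of myeloid cells, was 13.7 RPKM in the control, 26.8 and 168 in the day 1 pair, 99.5 and 20 in the day 3 pair and 77.1 and 50.9 in the day 7 pair, 4.98-fold (4.24 to 5.88) lower on day 3. Csf1r, the macrophage growth factor receptor, was 8.61 against 2.05 RPKM, and Cd68, a lysosomal marker, was 21.2 against 5.06. Cd14, part of the endotoxin receptor, was 124 against 51.6, and Arg1 was 27.5 against 7.33.

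Complement C1q genes, made by resident macrophages, did not share this difference: C1qa was 7.89 against 8.34 RPKM, C1qb 11 against 7.94 and C1qc 7.93 against 8.15. Mrc1, the mannose receptor, was 1.2 against 1.47. The summed level of the macrophage list, 1415 and 1087 RPKM, came mostly from Plac8 at 1022 against 954, a gene that colonic epithelium also makes.

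Markers of the tissue under the epithelium were lower as well. The fibroblast and matrix list had 23 counted genes, 13 of them at least 2-fold lower, against 6.02% of all genes, and none at least 2-fold higher (median -1.05). Its summed level was 219.8 and 85.2 RPKM. Dcn, a matrix proteoglycan, was 2.08 RPKM in the control, 11.8 and 58.4 in the day 1 pair, 29 and 6.29 in the day 3 pair and 21.1 and 15.3 in the day 7 pair, 4.6-fold (3.71 to 5.77) lower on day 3. Vim, the filament protein of mesenchymal and blood cells, was 50.5 against 11.1, and Col1a1 and Col3a1, fibrillar collagens, were 16.9 against 8.12 and 21.2 against 10.5. Pdgfrb, the receptor of pericytes and fibroblasts, was close at 2.23 against 2.02.

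Endothelial markers gave 7 of 10 at least 2-fold lower, against 6.02% of all genes, and none higher (median -1.49). They summed to 14.3 and 5.34 RPKM. Plvap, of fenestrated vessels, had 92 against 13 reads, and Vwf had 27 against 38. Neither the fibroblast nor the endothelial list had a marker at 0 reads in either pool. Red cell markers were at least 2-fold lower in 3 of 4 counted genes, against the same 6.02%. They summed to 12.9 and 5.03 RPKM, with Slc4a1 at 0 reads in both pools, and Hbb-bs was 8.38 against 2.6. Matrix metalloproteinases and their inhibitors were lower in 10 of 19 genes by at least 2-fold, against 6.02% of all genes (median -1.51). Mmp3 had 49 against 1 reads, a ratio of 47-fold (8.05 to 1894). Mmp10 and Mmp13 were 16.1 against 2.55 and 15.7 against 2.75 RPKM, and Mmp15 and Mmp14 were within 2-fold at 111 against 96.1 and 37.8 against 33.4.

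The summed levels of lymphocyte, muscle and fat lists were closer between the pools. B and plasma cell markers summed to 147 and 141 RPKM, with 0 of 11 past 2-fold. T and NK cell markers summed to 13.6 and 12.8, but their log2 ratios ranged from -2.11 to 1.18 (median 0.43). Of 14 counted, 1 was at least 2-fold higher and 4 lower, against 2.76% and 6.02% of all genes. Muscle and nerve markers summed to 40.7 and 35.3, with 1 of 9 counted genes at least 2-fold higher and 2 lower, and fat markers to 63.5 and 60, with 1 of 5 higher and 1 lower. Single genes in the muscle and fat lists also ranged widely, from -2.52 to 2.72 and from -1.11 to 3.23 on the log2 scale. Mast cell genes were higher: Mcpt1, a mucosal mast cell protease, was 8.42 against 22.1 RPKM, 2.62-fold (2.0 to 3.46) higher, and Cma1 had 9 against 46 reads. The mast cell and eosinophil list summed to 26.4 and 50.1 RPKM, with 2 of its 14 members at 0 reads with DSS alone and 4 with PhIP/DSS. How far the mix of cells in the scraped pools sets the differences in other genes was not tested.

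**Figure D3:**
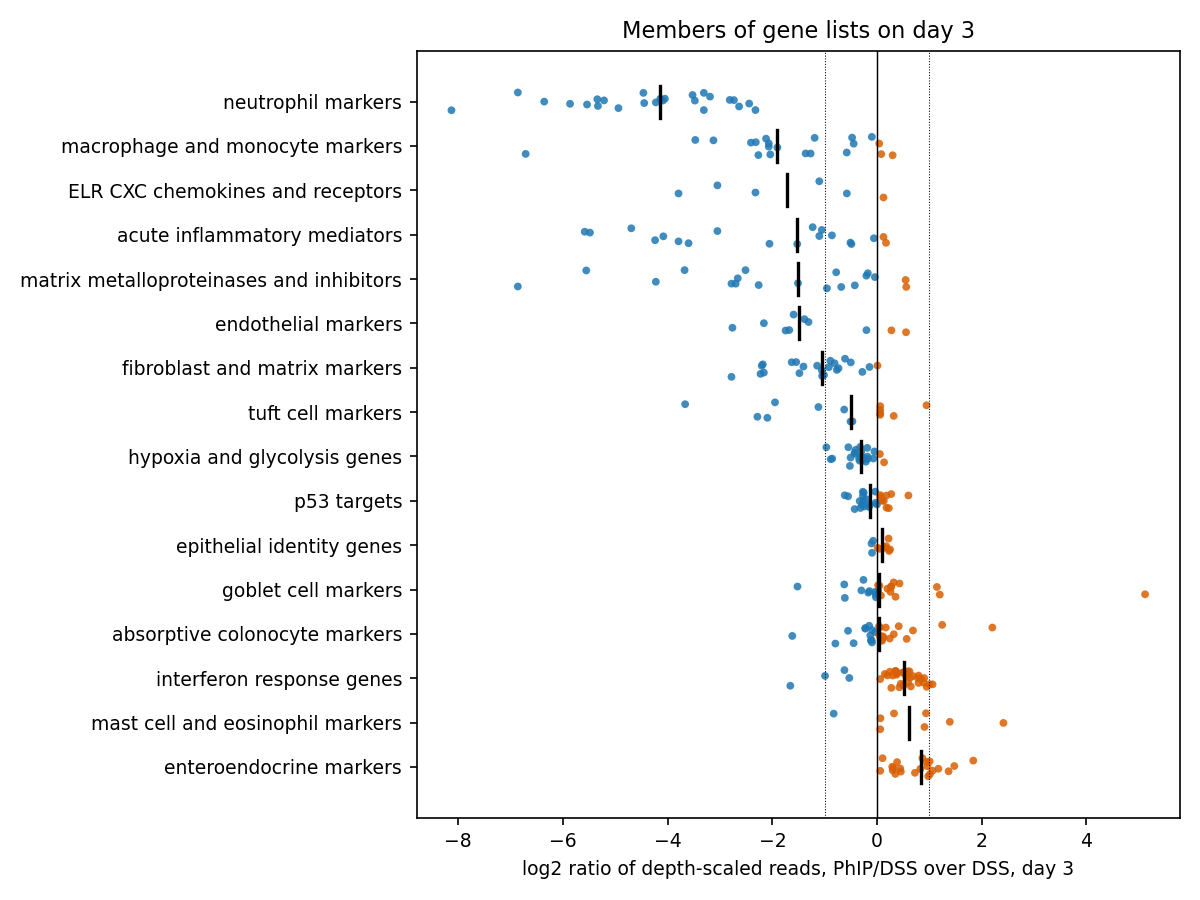
Day 3 ratio of each counted member of 16 gene lists, as log2 of PhIP/DSS over DSS alone on the x axis. Each point is 1 gene, the black bar is the list's median, the dotted lines mark 2-fold, and there are no error bars because each treatment had 1 pool. All 25 neutrophil markers lie left of the 2-fold line, while enteroendocrine genes lie to the right of 0.

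Epithelial defence genes fell into 3 sets. Reg3b, a lectin that kills bacteria, was 1.72 RPKM in the control, 40 and 463 in the day 1 pair, 166 and 37.1 in the day 3 pair and 4.15 and 3.14 in the day 7 pair, 4.47-fold (3.88 to 5.16) lower on day 3, and its neighbour in the family Reg3g was 47.1 against 14, 3.37-fold lower. Lrg1, a secreted glycoprotein of inflamed epithelium, was 113 against 24.5, 4.63-fold (4.07 to 5.28) lower. A second set was level: Pglyrp1, which binds bacterial peptidoglycan, was 891 against 858 RPKM, Slpi, a protease inhibitor, was 84.6 against 81.4, and Lypd8, which holds flagellated bacteria off the surface, had 136224 against 146619 reads.

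The third set was higher with PhIP. Reg4, of deep crypt secretory cells, was 274 RPKM in the control, 137 and 105 in the day 1 pair, 233 and 487 in the day 3 pair and 202 and 287 in the day 7 pair, 2.09-fold (1.98 to 2.2) higher. Wfdc2 was 68.4 against 149.6 RPKM, and Ang4, an antibacterial ribonuclease, was 11.1 against 24.6. In sum 7 of the 22 counted genes were at least 2-fold lower and 4 higher, against 6.02% and 2.76% of all genes, and the median was -0.06. The list also holds Saa3 and S100a9, reported above, and S100a9 is in the neutrophil list too. Which cells the reads of the lower genes came from was not tested.

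Oxidant-producing enzymes of phagocytes and of epithelium differed. The phagocyte oxidase subunits Ncf1 and Cybb were 14.7 against 2.01 and 6.49 against 1.35 RPKM. The epithelial oxidases were slightly higher with PhIP, at 85.6 against 99.3 for Duox2, 96.8 against 148 for its partner Duoxa2 and 34.3 against 45.5 for Nox1. Hmox1, which breaks down haem, was 22.6 against 5.01 and Slc7a11, a cystine importer, was 5.17 against 1.49. These 2 were the only ones of 24 counted oxidative stress targets past 2-fold, and Gstm1 and Nqo1, which detoxify electrophiles, were 99.1 against 164 and 23.3 against 30.7.

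Interferon-stimulated genes were slightly higher in the PhIP/DSS pool. Of 38 counted, 34 were higher by any amount, against 52.3% of all genes, but only 1 was at least 2-fold higher and 1 at least 2-fold lower, and the median log2 ratio was 0.51. Mx1, an antiviral GTPase, was 2.26 against 4.72 RPKM, 2.08-fold (1.53 to 2.86) higher. Irgm2 and Igtp, GTPases that act on vacuoles of intracellular pathogens, were 15.4 against 30.8 and 15.9 against 29.7. Psmb8, a subunit of the immunoproteasome, was 28 against 50.1, and Ido1, which degrades tryptophan, was 9.3 against 17.9. The 4 members on the lower side were Cxcl10, Cxcl9, Gbp4 and Cd274, the ligand of PD-1.

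Antigen presentation followed the same small shift. Of 20 counted MHC class I genes 16 were higher by any amount, against 52.3% of all genes, and none was past 2-fold (median 0.33). B2m, the shared light chain, was 878 against 1187 RPKM. Of 9 class II genes 7 were higher, also within 2-fold, and Cd74, the invariant chain, was 104 against 135.

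Mptx1 and a pair of calcium transport genes led the higher side. Mptx1, a secreted pentraxin of colonic epithelium on chromosome 1 (chr1:174330518-174332877), was 1804 RPKM in the control, 6.13 and 5.11 in the day 1 pair, 1.7 and 59.1 in the day 3 pair and 13.3 and 132 in the day 7 pair. It had 12 against 400 reads in the day 3 pair, 34.7-fold (19.7 to 67.8) higher with PhIP. Both day 3 pools were far below the control, and the day 3 DSS pool was the lowest of the 7.

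Trpv6, the apical calcium channel, and S100g, the cytosolic calcium carrier calbindin-D9k, take up calcium under vitamin D control, and their start regions are printed above. Trpv6 was 3.28 RPKM in the control, 1.83 and 1.15 in the day 1 pair, 0.309 and 9.19 in the day 3 pair and 4.77 and 11.9 in the day 7 pair, 29.7-fold (14.8 to 69.6) higher with PhIP on day 3. S100g was 46.8 RPKM in the control, 3.1 and 1.22 in the day 1 pair, 0.474 and 13.8 in the day 3 pair and 6.81 and 31.7 in the day 7 pair, with 2 against 56 reads on day 3 and a ratio of 29.2-fold (7.71 to 247). In both genes the day 3 DSS pool was the lowest of the 7 libraries and the day 3 PhIP/DSS pool the higher of its pair. Vdr, the vitamin D receptor itself, was 64.2 against 97.8 RPKM, 1.52-fold (1.45 to 1.6) higher, and Atp2b1, the basal calcium pump, was 29.1 against 28.5. Of the 6 counted genes in this list 2 were at least 2-fold higher, both named here, against 2.76% of all genes. The median was 0.40.

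The gasdermin C genes, a cluster on chromosome 15 whose products form membrane pores, were higher together. Gsdmc4 was 346 RPKM in the control, 172 and 91.1 in the day 1 pair, 59.1 and 193 in the day 3 pair and 143 and 213 in the day 7 pair, 3.27-fold (3.05 to 3.5) higher on day 3. Gsdmc2 was 26.4 against 89.3 RPKM and Gsdmc3 was 7.12 against 23.3, 3.38-fold and 3.27-fold higher, and Gsdmc had 29 against 53 reads. These copies resemble each other, so reads of one may have been counted for another. Gsdmd, the gasdermin cut by inflammasome caspases, was level at 109 against 107, as was Casp1 at 120.5 against 124. The inflammasome sensors of myeloid cells were lower: Nlrp3 had 121 against 9 reads and Mefv 87 against 3. Nlrp1b, another sensor, was higher with 9 against 114 reads, 13.2-fold (6.72 to 29.6).

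Several other transport and metabolic genes were higher. Aqp8, a water channel, was 287 RPKM in the control, 274 and 267 in the day 1 pair, 119 and 281 in the day 3 pair and 165 and 207 in the day 7 pair, 2.37-fold (2.23 to 2.51) higher on day 3. Atp12a, the colonic proton and potassium pump, was 65.9 against 148 RPKM, 2.25-fold higher. Slc5a8, which imports butyrate, was 32.8 against 73, 2.22-fold higher, and Acsm3, an acyl-CoA synthetase, was 26 against 49.2. The rest of butyrate use and mitochondrial oxidation was close, with 1 of 27 counted genes past 2-fold and a median of 0.08. Cyp2c55, a cytochrome P450 of the colon, was 132 RPKM in the control, 79.9 and 75.2 in the day 1 pair, 13.2 and 60.6 in the day 3 pair and 56.1 and 23.5 in the day 7 pair, 4.6-fold (3.98 to 5.33) higher.

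Slc37a2, a sugar phosphate transporter, was 97.3 RPKM in the control, 4.46 and 1.53 in the day 1 pair, 1.74 and 11.8 in the day 3 pair and 4.39 and 22.8 in the day 7 pair, 6.76-fold (5.23 to 8.86) higher on day 3. Prss23, a secreted protease, was 1.16 against 7.25 RPKM, and Ephb6, a receptor of the ephrin family, was 1.27 against 7.32. Klk15, a kallikrein protease, had 1 against 20 reads, a ratio of 20.8-fold (3.33 to 864). For Slc37a2 the PhIP/DSS pool was above DSS alone and far below the control.

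Sodium transport genes were lower or level. Scnn1b and Scnn1g, subunits of the epithelial sodium channel, were 22.2 against 6.18 and 15 against 4.6 RPKM, 3.59-fold and 3.26-fold lower with PhIP, while the alpha subunit Scnn1a was 63.7 against 69.2. Slc9a3, the sodium and proton exchanger, was 43.8 RPKM in the control, 104 and 91.6 in the day 1 pair, 92 and 29.9 in the day 3 pair and 44.1 and 14.3 in the day 7 pair, 3.07-fold (2.81 to 3.37) lower on day 3. Best2, a chloride and bicarbonate channel of goblet cells, was 62.6 against 21.8. Slc26a3, the chloride exchanger, and Car4, carbonic anhydrase, were within 2-fold at 161 against 149.7 and 421 against 560.4. Of the 27 counted transport genes 2 were at least 2-fold higher and 4 lower, against 2.76% and 6.02% of all genes. Their median was 0.01.

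**Figure D4:**
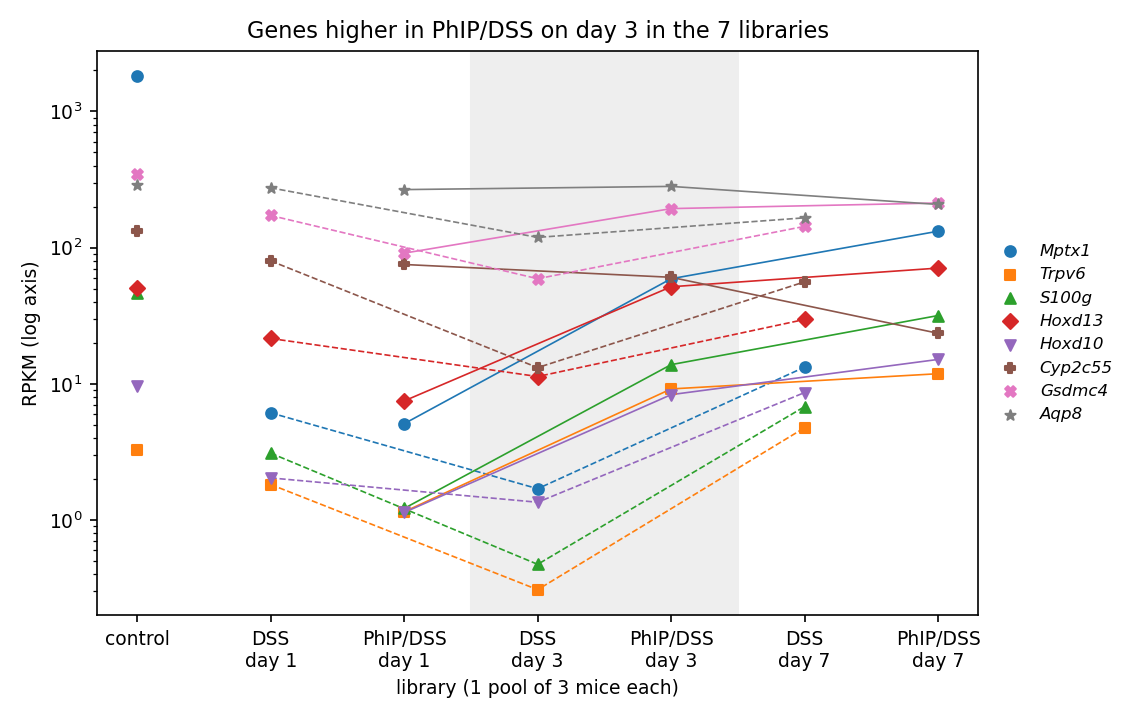
Levels of Mptx1, Trpv6, S100g, Hoxd13, Hoxd10, Cyp2c55, Gsdmc4 and Aqp8 in all 7 libraries, in RPKM on log axes, against day after DSS, with the control at the left. Dashed lines join the DSS pools, solid lines the PhIP/DSS pools, each point is 1 pool of 3 mice, and the grey band marks day 3. For each gene the DSS pool is the lower of the pair on day 3, and Mptx1 stays far below its control level of 1804 RPKM throughout.

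Hox genes, which set position along the gut, differed by cluster; this family was taken up after its values had been seen. All 5 counted genes of the D cluster on chromosome 2 were at least 2-fold higher with PhIP, with a median of 2.62. Hoxd13 was 50.6 RPKM in the control, 21.5 and 7.5 in the day 1 pair, 11.3 and 51.6 in the day 3 pair and 29.7 and 70.8 in the day 7 pair, 4.56-fold (3.97 to 5.26) higher. Hoxd10 and Hoxd11 were 1.35 against 8.34 and 0.978 against 6.75 RPKM, and Hoxd12 and Hoxd9 had 7 against 45 and 6 against 18 reads. Of the 7 libraries, Hoxd10, Hoxd11, Hoxd12 and Hoxd13 were lowest in the day 1 PhIP/DSS and day 3 DSS pools, and higher in both day 7 pools. Over 11 counted genes of the A cluster the median was 0.11, and Hoxa13 was 21.9 against 23.8. Hoxb13, of the distal colon, was 134 against 196, a log2 ratio of 0.55. Where along the colon each pool was scraped was not given in the sources used here, and the part of position in these values was not tested. The list of small intestinal and regional markers had 3 of 14 counted genes at least 2-fold higher and 4 lower, against 2.76% and 6.02% of all genes. Hoxd13 and Hoxd10, given above, are among its higher genes. The list summed to 564 and 712 RPKM.

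Enteroendocrine genes were higher throughout the list. All 22 counted were higher in the PhIP/DSS pool by some amount, against 52.3% of all genes, and 7 were at least 2-fold higher, against 2.76%. The median was 0.85. Pyy, a hormone of distal L cells that curbs appetite, was 221 RPKM in the control, 194 and 259.5 in the day 1 pair, 164 and 331 in the day 3 pair and 173 and 237 in the day 7 pair, 2.01-fold (1.84 to 2.2) higher on day 3. Insl5, another L cell hormone, was 59.3 against 134 RPKM, 2.25-fold (1.99 to 2.55) higher. Tph1, which makes serotonin, was 4.1 against 10.6, 2.58-fold higher, and Chga, of secretory granules, was 26.1 against 47.5. Insm1, a regulator of their differentiation, had 24 against 64 reads and Ghrl, ghrelin, 7 against 24. The smallest ratios were those of Pax6 and Cpe, at 0.06 and 0.10 on the log2 scale. For both L cell hormones the day 3 PhIP/DSS pool was the highest of the 7 libraries.

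Goblet cell genes had a median of 0.03. Of 24 counted, 3 were at least 2-fold higher and 1 lower, against 2.76% and 6.02% of all genes. Their log2 ratios ranged from -1.52 for Best2 to 5.12 for Mptx1, both reported above. Muc2, the gel-forming mucin, had 80073 against 50114 reads, a log2 ratio of -0.62, while Fcgbp, which binds to it, was 0.07 and Clca1 0.27. The 28 counted absorptive genes had a median of 0.04 and the 18 junction genes one of 0.05, with none of the latter past 2-fold. The tuft cell list had a median of -0.49, or -1.23 over genes with at least 50 reads. Of its 14 counted genes 5 were at least 2-fold lower, against 6.02% of all genes. Alox5ap, Alox5 and Ptgs1, which leukocytes also express, were among the 5. The tuft markers Dclk1 and Trpm5 were level, at 0.666 against 0.83 RPKM and 28 against 28 reads.

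Repair genes of the injured epithelium were lower by a modest amount. Of 27 counted, 19 were lower by any amount and 6 at least 2-fold, against 47.7% and 6.02% of all genes. None was at least 2-fold higher, and the median was -0.32. Ly6d was 4.32 RPKM in the control, 227 and 196 in the day 1 pair, 244 and 103 in the day 3 pair and 138 and 156 in the day 7 pair, 2.37-fold (2.15 to 2.61) lower on day 3. Ly6a, also called Sca-1, was 821 against 618 RPKM, whereas Clu, a marker of revival stem cells, was 41.4 against 54.5 and Sprr1a, a cornified envelope protein, 80.3 against 146, both higher with PhIP. Among growth factors, Nrg1 had 73 against 12 reads, Ereg was 4.24 against 2.07 and Areg was 46.9 against 40.6.

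Stem cell and Wnt genes were mixed. Axin2, a Wnt feedback gene, was 5.22 against 10.1 RPKM and Sox9, of crypt progenitors, was 21.9 against 39.1, 1.78-fold (1.63 to 1.94) higher. Lgr5, the stem cell receptor, was 2.54 against 1.97, and Cd44 and Prom1 were lower at 23.6 against 12.5 and 215 against 121. The 21 counted genes of this list had a median of 0.29. Of them 1 was at least 2-fold higher and 1 lower, against 2.76% and 6.02% of all genes.

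Growth and stress programmes differed little. Of 26 mitosis genes 22 were lower by any amount, against 47.7% of all genes, and none past 2-fold (median -0.27). Top2a, which untangles DNA, was 32.8 against 24.6 RPKM. DNA replication genes had a median of -0.09 and 0 of 28 past 2-fold. Of 25 hypoxia and glycolysis genes 23 were lower, against the same 47.7%, and again none past 2-fold (median -0.31). Slc16a3, the lactate exporter, was 55.8 against 28.5 and Ldha, lactate dehydrogenase, 877 against 701. Unfolded protein response genes had a median of -0.20, cholesterol synthesis genes 0.03 and respiratory chain genes 0.02. Against the all-gene median of 0.01, these are shifts of a fraction of a doubling.

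Genes tied to PhIP itself were close. Targets of p53, the factor that responds to DNA damage, had 0 of 27 past 2-fold and a median of -0.14: Cdkn1a, the cell cycle inhibitor, was 237 against 251 RPKM, 1.06-fold (1.01 to 1.1) higher, and Mdm2, which degrades p53, was 17.8 against 14.2. DNA repair genes also had 0 of 29 past 2-fold (median -0.01). Of 18 counted genes of the aryl hydrocarbon receptor and xenobiotic metabolism 1 was past 2-fold, Abcc2, an efflux pump for conjugates, with 2 against 11 reads. Cyp2s1 and Sult1a1, the latter a sulfotransferase that acts on hydroxylated amines, were 34.8 against 51.2 and 39.1 against 53.4.

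The day 1 and day 7 pairs, which share no library with the day 3 pair, put these ratios in time. On day 1 the order of the inflammatory genes was the opposite: 9.39% of 13577 counted genes were at least 2-fold higher with PhIP and 2.70% lower. Of the 769 genes at least 2-fold lower on day 3 and counted on both days, 579 were at least 2-fold higher on day 1, which is 75.3% of the day 3 genes and 52.4% of the 1105 on day 1, while 20 were lower on both days. Of the 322 higher on day 3, 75 (23.3%, and 22.2% of the 338 on day 1) were lower on day 1. The median log2 ratio of neutrophil markers was 3.87 on day 1, -4.14 on day 3 and -1.80 on day 7.

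On day 7 the share at least 2-fold lower with PhIP was 3.28% of 13639 genes and that higher was 3.54%. Of the 762 genes lower on day 3, 206 were also lower on day 7 (27.0%, and 52.0% of the 396 on day 7), and of the 344 higher on day 3, 87 were higher on day 7 (25.3%, and 22.7% of 384). Il1b had log2 ratios of 3.90, -4.08 and -1.49 on days 1, 3 and 7, and Trpv6 had -0.66, 4.89 and 1.32. For enteroendocrine genes the medians were 0.08, 0.85 and 0.25, and for interferon response genes 0.55, 0.51 and 0.74, above 0 on all 3 days. With 1 pool per arm and day, a difference between days could not be tested.

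**Figure D5:**
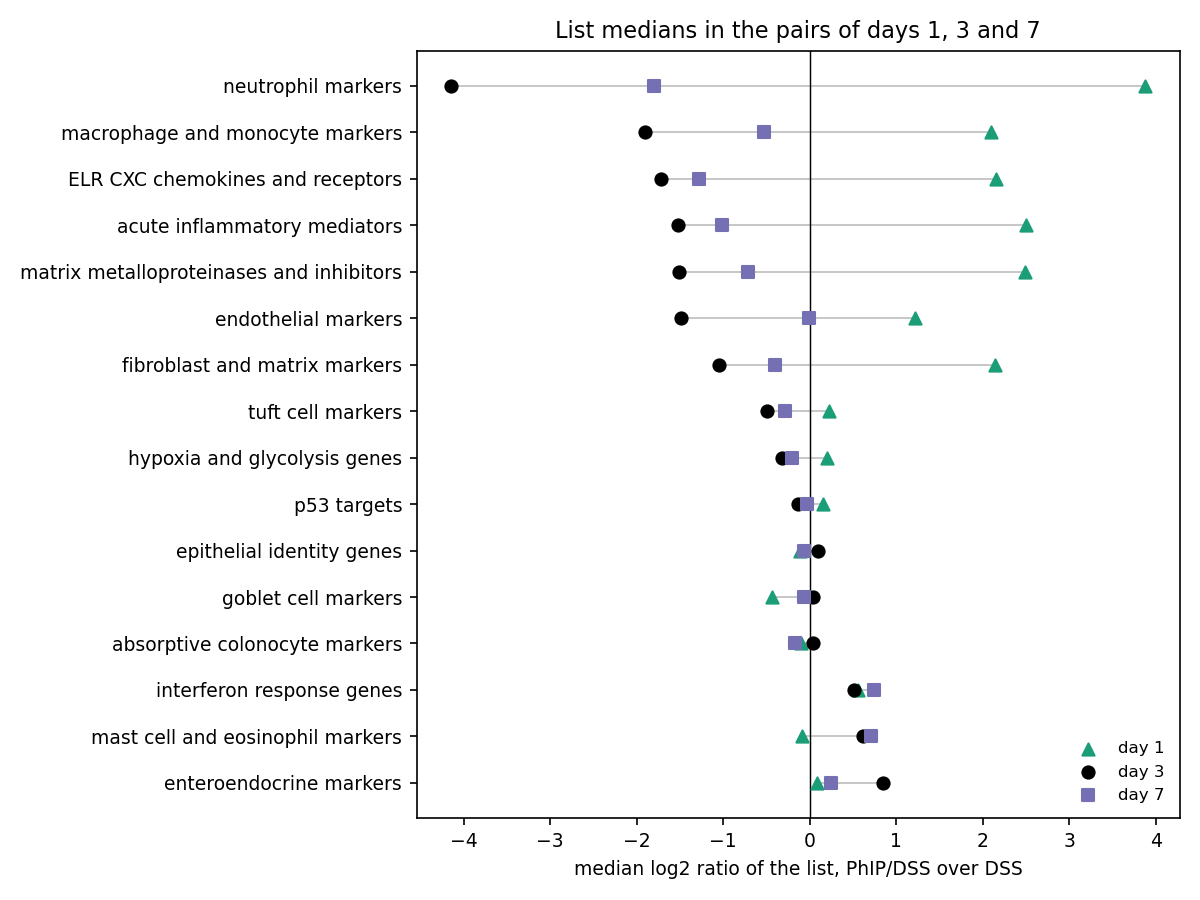
Median log2 ratio of PhIP/DSS over DSS alone for gene lists on days 1, 3 and 7, each day from its own pair of libraries. Each point is the median over the members counted on that day, without error bars because each arm had 1 pool per day. Neutrophil, macrophage and chemokine lists lie above 0 on day 1 and below 0 on day 3, and the interferon response list lies above 0 on all 3 days.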

How the data were processed

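RNA-seq of mouse colon epithelium gave 1 library per treatment and day, each a pool of 3 mice. For each library the authors deposited 1 table that gives a count of unique reads and an RPKM for each gene. Per the file headers these are raw unique reads and RPKM; the deposited RPKM equalled reads over gene length and library total in every row, with a largest relative deviation of 7.84e-14. The build mm10 and the tool FastQC are named in the submitters' processing notes, while aligner, counter, annotation and use of strand were not given in the sources used here, so antisense and near-identical genes may share reads. Day codes in the deposited names differ from the day labels, and the labels were used.

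Ratios are of unique reads over library totals, for genes with at least 10 reads summed over the pair. Of these, 17 had 0 reads with PhIP/DSS and 1 with DSS alone, and a 0 was set to 3 reads. Exact 95% intervals come from the binomial split of the reads (Python 3.11.15, SciPy 1.17.1), and the calculation was tested on simulated data. Samples were grouped by title and treatment label. With 1 library per arm no test was run, and "called" means at least 2-fold.

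The 53 gene lists hold 1079 symbols, of which 1072 matched the deposited or RefSeq names, and lists and named genes were chosen with earlier results of these data known. Named were the 12 genes per direction whose interval lay farthest from 1 with at least 1 RPKM in the pair, members of each list past 2-fold, at its ends or among its most abundant, the Cyp1a genes, and genes of an earlier account of these libraries. Hox genes and those of the last part were added after their values were seen. Other scalings (edgeR 4.0.16, DESeq2 1.42.0), read minimums, folds and pseudocounts were tried. Gene positions and start regions are from RefSeq, GRCm38.p6.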

Additional observations from a re-analysis of the deposited data

Results flagged for a closer look

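In 10 gene lists the median log2 ratio of PhIP/DSS over DSS alone was 1 or more on day 1 and -1 or less on day 3, a median difference of at least 2-fold in opposite directions. Some of the 10 share members, so they are not separate sets of genes. Mmp8 is in the neutrophil and metalloproteinase lists, and Cxcr2 in the neutrophil and CXC lists. Other lists changed sign with a smaller median on one or both days and are not among the 10. Of these, fat tissue markers went from 3.40 on day 1 to -0.34 on day 3, a difference of -3.74, over 11 and 5 counted genes. The difference between days was not tested, since each arm had 1 pool per day. Day 3 minus day 1, the medians differed by -8.01 for neutrophil markers, from 3.87 to -4.14. For acute inflammatory mediators the difference was -4.02, for neutrophil-attracting CXC chemokines and receptors -3.86, for interferon-induced CXC chemokines -3.72 and for the interleukin 1 family -2.84. Macrophage and monocyte markers differed by -4.0, fibroblast and matrix markers by -3.19, endothelial markers by -2.70 and red cell markers by -3.56. Matrix metalloproteinases and inhibitors differed by -4.0. The marker lists of neutrophils, macrophages, red cells, fibroblasts and endothelium stand among the 10, and the fat tissue list moved the same way. The B and plasma cell, T and NK cell, mast cell and eosinophil, and muscle and nerve lists are not among them. The part of cell markers in the other lists was not tested.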

How the results depend on the processing

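At the reported settings 372 genes were at least 2-fold higher and 811 lower in the PhIP/DSS pool of day 3. With TMM factors these were 364 and 815, with DESeq2 size factors 356 and 824, and on log2(RPKM + 0.1) 264 and 672. The counts moved by more than 1.5 times under other settings: 117 and 382 with at least 50 reads, 922 and 1294 at 1.5-fold, 60 and 340 at 4-fold, 71 and 299 on log2(RPKM + 1), and 49 and 315 where the whole counting interval had to pass 2-fold. With at least 1 read the higher genes were 827 and the lower 1089. None of the 120 named genes changed direction under both scalings and both pseudocounts, and 47 of them left their counting interval at RPKM + 1. Medians of 4 lists near 0 changed sign: ion and water transport from 0.01 to -0.01 and respiratory chain from 0.02 to -0.01 with DESeq2 size factors, circadian clock from -0.06 to 0.01 at 1 and at 50 reads, and small intestine and region markers from 0.03 to -0.06 at 1 read. All 53 medians moved by less than 1.5-fold under both scalings and at RPKM + 0.1, and a scaling moves every ratio by the same small amount. Larger moves were those of the neutrophil-attracting CXC list, from -1.71 to -1.10 at 1 read and -2.32 at 50 reads, of tuft markers, from -0.49 to -1.23 at 50 reads, and of 4 lists at RPKM + 1: neutrophil -3.06, macrophage -1.13, endothelial -0.40 and red cell -0.81. The scalings shifted the median of all genes by -0.01 and -0.02. Leaving out a replicate was not possible, as each side was 1 pool. No paired analysis was possible because the labels give no replicate numbers and each group held 1 library. Genes under 1 RPKM rest on few reads, and the spread between mice is unknown.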

Other observations

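Several genes outside the lists differed in the day 3 pair; they were picked after their values had been seen and are given as values. Fkbp5, a chaperone of the glucocorticoid receptor and itself induced by it, was 21.1 RPKM in the control, 61 and 63.5 in the day 1 pair, 77.4 and 13.6 in the day 3 pair and 28 and 9.81 in the day 7 pair, with DSS alone first in each pair, 5.69-fold (5.15 to 6.31) lower on day 3. Sgk1, a kinase that raises sodium uptake, was 51 RPKM in the control, 73.8 and 47.7 in the day 1 pair, 114 and 53.8 in the day 3 pair and 82.1 and 40.8 in the day 7 pair, 2.12-fold (1.99 to 2.25) lower. Tsc22d3, also known as a glucocorticoid target, had a log2 ratio of -0.50. Fkbp5 was lower in the day 3 PhIP/DSS pool than in the control, and its day 1 pair was level.

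The metallothioneins Mt1 and Mt2, which bind zinc and copper, were also lower. Mt2 was 163 RPKM in the control, 269.7 and 292 in the day 1 pair, 289 and 63 in the day 3 pair and 138 and 178 in the day 7 pair, 4.59-fold (4.04 to 5.22) lower on day 3, and Mt1 was 581 RPKM in the control, 619.9 and 646 in the day 1 pair, 619 and 238 in the day 3 pair and 376 and 442 in the day 7 pair, 2.6-fold (2.43 to 2.78) lower. Both were level between the arms on day 1. Tfrc, which imports iron, was 32.2 RPKM in the control, 132 and 103 in the day 1 pair, 127 and 37.7 in the day 3 pair and 33.4 and 31.8 in the day 7 pair, 3.37-fold (3.19 to 3.57) lower on day 3, the day 3 PhIP/DSS pool being near the control.

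Cebpb and Cebpd, a pair of C/EBP factors, went opposite ways. Cebpb was 24.3 against 9.22 RPKM in the day 3 pair, 2.63-fold (2.12 to 3.28) lower with PhIP, and Cebpd was 14.6 against 34.3, 2.35-fold (2.04 to 2.7) higher. Tgm3, a transglutaminase, was 542 RPKM in the control, 111 and 35.2 in the day 1 pair, 55 and 169 in the day 3 pair and 107 and 223 in the day 7 pair, 3.06-fold (2.91 to 3.23) higher on day 3, and Ctse, an aspartic protease, was 74.1 RPKM in the control, 11.9 and 6.8 in the day 1 pair, 17.7 and 58 in the day 3 pair and 83.8 and 106 in the day 7 pair, 3.28-fold (2.9 to 3.73) higher. Relatives of Cyp2c55 shared its direction, with Cyp2c65 at 6.63 against 13.8 and Cyp2c68 at 5.64 against 12.8 RPKM, though these copies are similar and may share reads.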
